A study of Mus musculus with 18 samples.

Results

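The angiopoietin and VEGF pathways are best known for building and maintaining blood and lymphatic vessels. Angiopoietins are secreted ligands of the receptor tyrosine kinase TIE2, whereas VEGF ligands act through receptors such as FLT1 and KDR with neuropilins as coreceptors, and VE-cadherin is the junction protein that holds endothelial cells together. Leukocytes carry parts of these systems too: macrophages secrete VEGFA, particularly when oxygen is low, FLT1 is found on monocytes and macrophages, and NRP1 is known from regulatory T cells and from some dendritic cells.

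The 10 genes described here, Angpt1, Angpt2, Tek, Tie1, Vegfa, Vegfc, Flt1, Kdr, Nrp1 and Cdh5, were chosen by name out of 49585 gene rows in the count table, and all 10 were found in it. Earlier results of these data were known when they were chosen. The genes were measured by bulk RNA-Seq in 18 libraries of CD45+ leukocytes from Kaede mice aged 6 to 10 weeks, in 6 groups of 3 libraries. Kaede is a transgenic green fluorescent protein that light turns red, so that cells present in a tissue during exposure can be found again later. Recipients were given Th1-polarized OT-II T cells, which recognize ovalbumin. They were immunized the next day with 100 µg OVA in complete Freund's adjuvant, and 10 days later they were challenged with 100 µg heat-aggregated ovalbumin in the footpad (joint) or the ear pinna (skin). The inflamed tissue was photoconverted on day 3, and Kaede red+ cells were sorted 24 hours later from the tissue (joint nonmigrated, skin nonmigrated) or from its draining lymph node (joint migrated, skin migrated). Each library of these inflamed groups was made from cells pooled over male and female mice. The remaining groups are labelled steady state, one from the node that drains the joint, titled pLN_PBS_KG, and one from the node that drains the skin, titled Naive. Neither pooling nor sex is described for the steady-state groups. The treatment protocol names PBS as the control challenge in mice given the same transfer and immunization. Whether the mice titled Naive went through that protocol is not given in the sources used here. What KG stands for is not spelled out either, and whether the steady-state cells had been photoconverted cannot be told from the labels, so the comparisons with them may not set like against like.

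Library totals ran from 19239531 to 43814403 counts, and the 6 libraries of inflamed skin (19239531 to 22528895) were all shallower than the 6 of the inflamed joint (35554698 to 43814403). The floor, a count of 3, corresponded to 0.0616 to 0.180 CPM, the usual unit of counts relative to library size, here scaled by TMM factors. Ptprc, which encodes CD45, lay between 1160 and 2530 CPM in every library. Monocyte and macrophage genes, a list of 8 called macrophage genes below, summed to 4320 to 21300 CPM in the nonmigrated groups. In the node groups they summed to 51.4 to 557 CPM. The libraries labelled steady state are described as cells that had migrated from tissue. Genes of mature migratory dendritic cells, a list of 6, summed to 465 to 775 and 471 to 581 CPM there. In joint and skin migrated cells they summed to 2820 to 7400 and 5690 to 8040 CPM. The gap varied by gene: mean Fscn1 was 2.76 and 5.23 CPM at steady state, against 2420 and 3220 CPM in joint and skin migrated cells. Mean Ccr7 was 609 and 493 CPM, against 1170 and 1100 CPM. The reason was not tested. The third library of skin nonmigrated cells stood apart from the other 2, with 11100 CPM of macrophage genes against 5480 and 4318 CPM, 255 CPM of 6 fibroblast genes against 59.96 and 62.42 CPM, and 431.5 CPM of mature dendritic cell genes against 1225 and 1842 CPM. The third library of joint nonmigrated cells held the most neutrophil (15990 CPM) and fibroblast (362.2 CPM) RNA of its group. Calls of the 10 genes that change without 1 of these libraries are also given without it.

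On the mm10 build (GRCm38), 4 of the 10 genes lie on chromosome 8, namely Angpt2 (18690263 to 18741562, minus strand), Vegfc (54077606 to 54187096, plus strand), Cdh5 (104101625 to 104144511, plus strand) and Nrp1 (128358604 to 128503363, plus strand). Tek (94739289 to 94874976, plus strand) and Tie1 (118471191 to 118490061, minus strand) lie on chromosome 4, and Kdr (75932827 to 75978458, minus strand) and Flt1 (147561604 to 147726011, minus strand) on chromosome 5. Angpt1 lies on chromosome 15 (42424723 to 42676977, minus strand) and Vegfa on chromosome 17 (46016993 to 46032369, minus strand). Exons of Angpt1 share 737 bases with exons of Gm17473 on the opposite strand. Whether the libraries kept strand is not given, so reads from this stretch cannot be told apart.

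Proximal promoters are shown for the ligands Vegfa and Vegfc. Among the windows available for these genes, only the ones shown held no GENCODE exon bases and lay outside the RefSeq span of their gene. Both are RefSeq sequences on GRCm38.p6, the 250 bases upstream of a start site, printed 5′ to 3′ on the strand of the gene. Capitals mark the GC box GGGCGG, searched on both strands, so that it reads CCGCCC where it lies on the opposite strand.
Vegfa (chr17:46032378-46032627, minus strand): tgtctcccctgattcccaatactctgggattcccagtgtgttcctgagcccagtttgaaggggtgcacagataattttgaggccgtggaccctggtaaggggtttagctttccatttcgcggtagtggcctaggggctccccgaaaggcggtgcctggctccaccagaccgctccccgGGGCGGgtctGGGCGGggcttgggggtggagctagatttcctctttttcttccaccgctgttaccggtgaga
Vegfc (chr8:54077282-54077531, plus strand): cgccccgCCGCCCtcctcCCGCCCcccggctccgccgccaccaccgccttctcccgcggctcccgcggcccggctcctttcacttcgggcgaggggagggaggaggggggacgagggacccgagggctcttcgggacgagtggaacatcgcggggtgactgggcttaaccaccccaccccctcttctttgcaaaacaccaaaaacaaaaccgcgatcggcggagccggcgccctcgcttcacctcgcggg

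Each window held 2 GC boxes, a motif present in 32.7% of 32851 RefSeq promoter windows of this length. The core letters of the hypoxia response element, ACGTG and GCGTG, were searched on both strands because VEGFA is a textbook target of hypoxia-inducible factors. Neither occurred in the windows printed, whereas 16.6% of all windows held ACGTG and 28.2% held GCGTG. A further RefSeq start inside the Vegfa gene (46025164 to 46025413) had 1 match of each, and 218 bases of that window lie in exons. Of the windows not printed, Kdr held 2 matches of GCGTG and Flt1 and Nrp1 held 1 each, without ACGTG. Tek and Tie1 held neither. Sequence further upstream was not searched, so these windows cannot say whether a gene has such an element elsewhere. These are matches of letters and not measured binding sites.

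**Figure D1:**
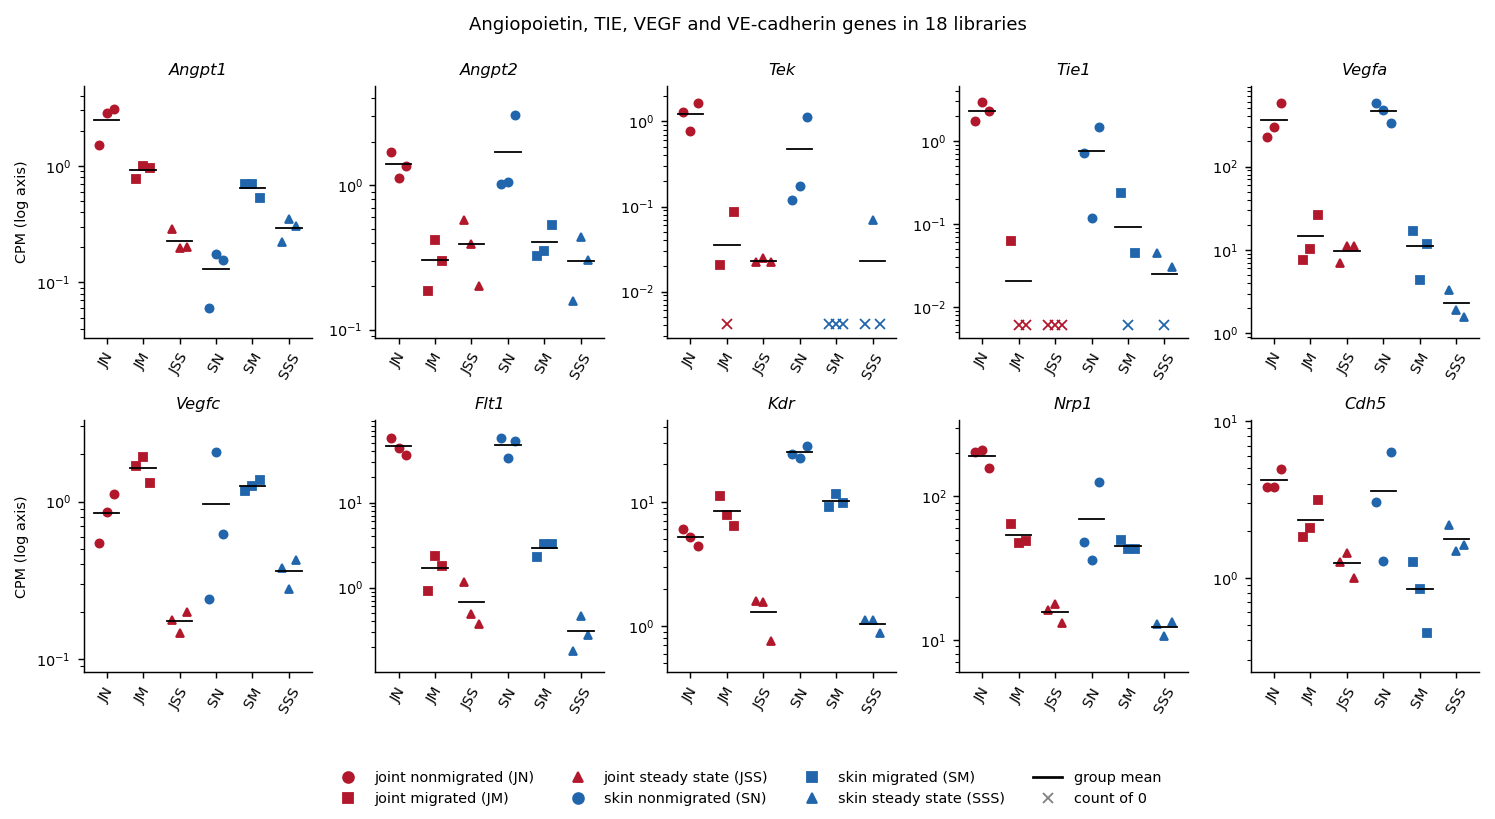
Level of the 10 genes in each of the 18 libraries, in CPM on a log axis, with single libraries as points, means of 3 libraries as lines and counts of 0 as crosses. Vegfa and Flt1 are high in both nonmigrated groups and low in the 4 node groups, and Tek and Tie1 are at 5 counts or fewer in every node library.

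Per kilobase of exon, the scale on which genes can be compared, Vegfa was the highest of the 10 in both nonmigrated groups, at a mean level of 85.3 CPM per kilobase in the joint and 108 in skin. Nrp1 came next at 19.5 and 7.16, followed by Flt1 at 3.40 and 3.57. Neighbours in this order did not overlap in the joint, whereas Nrp1 and Flt1 overlapped in skin. In the migrated groups Nrp1 led with 5.45 and 4.62 CPM per kilobase, ahead of Vegfa with 3.40 and 2.58, and the ranges of this pair overlapped in the joint. The angiopoietins and their receptors were lower, with no group mean above 0.476 CPM per kilobase.

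The first question was which genes separate leukocytes that stayed in inflamed tissue from those that had reached the node. Of the 10 genes, 7 were called lower in joint migrated than in joint nonmigrated cells and 0 higher, where called means an adjusted p under 0.05 and a log2 fold change beyond 1 in either direction by edgeR's quasi-likelihood test. Of the 16777 genes tested, 18.4% were called lower and 16.0% higher. The median log2 fold change of the 10 genes was -2.02, against 0.02 over all genes tested. In inflamed skin 7 were called lower and 1 higher in migrated cells, against 19.7% and 15.7% of all genes tested, and the median was -2.08 against 0.01. The 10 genes were chosen with earlier results of these data known, so the shares are descriptions only. In bulk samples fewer cells of a type and less RNA per cell cannot be told apart.

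Vegfa, the principal ligand of vessel growth, was among the genes with the largest differences. Its level was 227, 297 and 573 CPM in the joint nonmigrated libraries and 7.49, 10.3 and 25.9 CPM in the joint migrated libraries. In skin it was 586, 476 and 330 CPM in nonmigrated and 17.0, 4.39 and 11.7 CPM in migrated cells. Each nonmigrated library lay far above each migrated library at both sites. The log2 fold change was -4.65 (SE 0.610, edgeR adjusted p = 6.42e-05) in the joint and -5.39 (SE 0.636, adjusted p = 2.97e-05) in skin.

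Flt1, the VEGF receptor found on monocytes and macrophages, fell as well. Joint nonmigrated libraries held 56.9, 44.4 and 36.4 CPM and joint migrated libraries 0.903, 2.38 and 1.78 CPM. Skin nonmigrated libraries held 58.1, 33.4 and 53.0 CPM and skin migrated libraries 2.28, 3.29 and 3.23 CPM. The groups were far apart at each site, with log2 fold changes of -4.77 (SE 0.355, edgeR adjusted p = 1.23e-06) in the joint and -4.04 (SE 0.348, adjusted p = 3.09e-06) in skin.

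Kdr, the main signalling receptor for VEGFA on endothelium, ran differently at the sites. In skin its level was 24.1, 22.7 and 28.4 CPM in nonmigrated and 9.03, 11.6 and 9.84 CPM in migrated cells. In the joint it was 6.07, 5.25 and 4.39 CPM in nonmigrated and 11.2, 7.80 and 6.37 CPM in migrated cells. Migrated libraries thus lay below nonmigrated libraries in skin and above them in the joint, with no overlap at either site. The skin difference was called, at a log2 fold change of -1.31 (SE 0.217, edgeR adjusted p = 0.000344). The joint difference of 0.69 (SE 0.216, edgeR adjusted p = 0.0170) lay under the fold threshold and was not called.

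Angpt1, the activating ligand of TIE2, moved in opposite directions. Its counts were 55, 86 and 102 in the joint nonmigrated and 38, 43 and 45 in the joint migrated libraries. In skin they were 1, 3 and 3 in the nonmigrated and 15, 14 and 12 in the migrated libraries. The skin nonmigrated libraries were all at or under the floor of 3 counts, and groups did not overlap at either site. As levels these were 2.48 ± 0.848 and 0.916 ± 0.120 CPM in joint nonmigrated and migrated cells, and 0.130 ± 0.0618 and 0.643 ± 0.0964 CPM in skin (SD, n = 3). The log2 fold change on migration was -1.43 (SE 0.336, edgeR adjusted p = 0.00354) in the joint and 2.25 (SE 0.483, adjusted p = 0.00198) in skin, and the size of the latter depends on the prior count of the fit.

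Angpt2, which can oppose Angpt1 at TIE2, was called lower in migrated cells at both sites. Joint libraries held 62, 34 and 45 counts in nonmigrated and 9, 18 and 14 in migrated cells, and skin libraries 17, 18 and 59 and 7, 7 and 12 counts. The groups did not overlap, and the third skin nonmigrated library, at 3.07 CPM, was the highest of all 18. The log2 fold changes were -2.20 (SE 0.482, edgeR adjusted p = 0.00230) in the joint and -2.08 (SE 0.508, adjusted p = 0.00432) in skin, and the skin value was -1.35 without that library.

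The receptors of the angiopoietins were nearly absent from the leukocytes sorted from the nodes. Tek, which encodes TIE2, had 47, 23 and 55 counts in joint nonmigrated, 1, 0 and 4 in joint migrated, 2, 3 and 22 in skin nonmigrated and 0, 0 and 0 in skin migrated libraries. Tie1, which encodes a partner of TIE2, had 64, 87 and 76, then 3, 0 and 0, then 12, 2 and 28, and then 5, 0 and 1 counts in the same groups. Joint nonmigrated libraries had the highest Tie1 of all, and for Tek the third skin nonmigrated library reached into their range.

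For counts this low the ratio of summed counts, scaled by library size, is given with an exact interval that covers counting error only. Joint nonmigrated cells held 34.6-fold more Tek (95% interval 14.4 to 108) and 105-fold more Tie1 (95% interval 35.4 to 511) than joint migrated cells. In skin, Tek was at least 3.41-fold higher in nonmigrated cells, taking 3 counts per library as the floor of the migrated group, and Tie1 was 8.46-fold higher (95% interval 3.58 to 24.3). All 4 differences were called, with edgeR adjusted p = 0.00195 and 0.000280 for Tek and Tie1 in the joint and 0.00938 and 0.0257 in skin. In skin 22 of the 27 Tek counts and 28 of the 42 Tie1 counts came from the third nonmigrated library. Without it Tek kept its call and Tie1 lost it, at a log2 fold change of -2.11. The Tie1 call in skin was also lost without the second (-2.47) or the third (-2.67) skin migrated library.

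Nrp1, the coreceptor that binds VEGFA and class 3 semaphorins, had 203, 212 and 158 CPM in joint nonmigrated and 63.8, 47.6 and 48.6 CPM in joint migrated cells. The groups were well separated, at a log2 fold change of -1.84 (SE 0.364, edgeR adjusted p = 0.00117). In skin it was 47.9, 36.1 and 126 CPM in nonmigrated and 49.3, 43.1 and 43.2 CPM in migrated cells. These groups overlapped, and the difference of -0.63 (SE 0.358, edgeR adjusted p = 0.150) was not called and changed sign to 0.11 without the third skin nonmigrated library. Genes of regulatory T cells, a list of 5, summed to 68.3 to 160 CPM in joint nonmigrated, 811 to 994 CPM in joint migrated and 257 to 265 CPM in joint steady-state cells, and their part in Nrp1 was not tested.

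Vegfc, the lymphatic growth factor, did not pass the test at either site. Joint nonmigrated libraries held 0.547, 0.864 and 1.11 CPM and joint migrated libraries 1.68, 1.92 and 1.31 CPM. The migrated group lay above without overlap, at a log2 fold change of 0.96 (SE 0.538, edgeR adjusted p = 0.151). Skin nonmigrated libraries held 0.240, 2.05 and 0.624 CPM and enclosed the migrated libraries at 1.16, 1.25 and 1.37 CPM, at 0.38 (SE 0.571, adjusted p = 0.597). Without the second skin nonmigrated library, which held 35 of the 51 counts of its group, the skin difference was 1.52 and was called.

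Cdh5, the gene of VE-cadherin, was called in skin and not in the joint. Skin nonmigrated libraries held 3.06, 1.29 and 6.34 CPM and skin migrated libraries 1.26, 0.849 and 0.443 CPM, without overlap. The log2 fold change was -2.07 (SE 0.537, edgeR adjusted p = 0.00611), and -1.35 without the third nonmigrated library. Joint nonmigrated libraries held 3.77, 3.82 and 4.96 CPM and joint migrated libraries 1.83, 2.08 and 3.13 CPM. The joint groups did not overlap either, but the difference of -0.83 (SE 0.482, edgeR adjusted p = 0.163) did not pass the test.

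**Figure D2:**
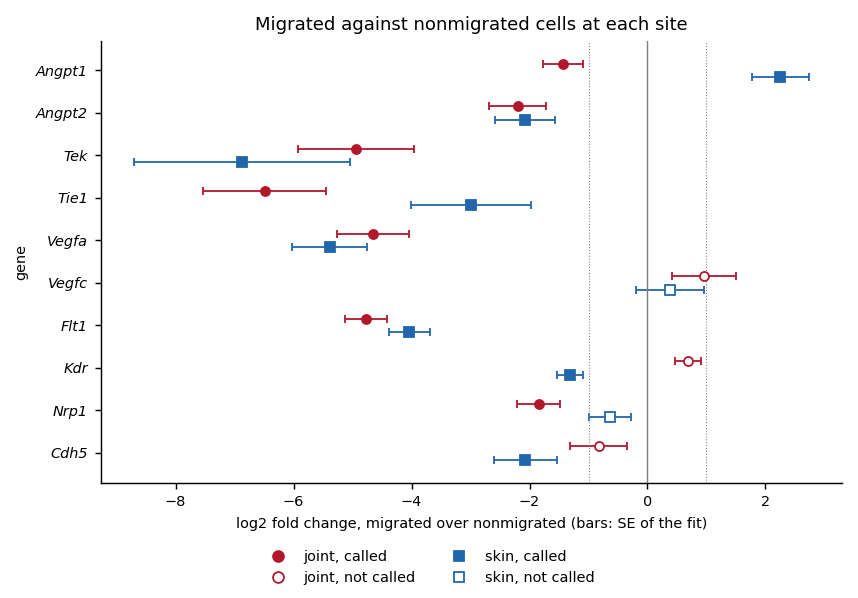
Log2 fold change of migrated over nonmigrated cells for each of the 10 genes in joint and skin, with bars for the standard error of the fit. Angpt1 (-1.43 in joint, 2.25 in skin) and Kdr (0.69 and -1.31) lie on opposite sides of 0 at the sites, and Vegfa and Flt1 lie below -4 at both.

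Marker genes of other cell types moved with these differences. Of all genes tested, 18.4% were called lower and 16.0% higher in the joint, and 19.7% and 15.7% in skin. In the joint, 10 of 11 endothelial genes tested, 6 of 6 fibroblast genes, 6 of 7 mural genes, 3 of 6 lymphatic endothelial genes, 5 of 7 platelet and megakaryocyte genes, 8 of 8 macrophage genes and 7 of 7 neutrophil genes were called lower in migrated cells. In skin the counts were 6 of 11, 6 of 6, 5 of 7, 3 of 6, 6 of 7, 8 of 8 and 7 of 7 in the same order. Among the mural genes, 1 was called higher at each site. Genes of T cells (6 of 6 in the joint, 4 of 6 in skin), regulatory T cells (5 of 5 and 4 of 5), B cells (5 of 5 at both) and mature dendritic cells (5 of 5 tested at both) were called higher. Among lists with fewer calls in the joint, 2 of 6 mast cell genes were lower (6 of 6 in skin), 1 of 6 plasmacytoid dendritic cell genes was higher (2 of 6 in skin), and of 7 stem and progenitor genes 2 were higher and 2 lower (1 and 2 in skin).

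Leaving out Pecam1, which leukocytes also carry, the other 11 endothelial genes summed to 38.0 to 58.3 CPM in joint nonmigrated and 2.79 to 4.39 CPM in joint migrated cells. In skin they summed to 45.8 to 62.4 CPM in nonmigrated and 2.5 to 9.64 CPM in migrated cells. Of the defining endothelial genes, Emcn and Sox18 were at 0 in all 3 joint migrated libraries and Robo4 in all 3 skin migrated libraries. Fibroblast sums were 129 to 362 CPM in joint nonmigrated and 1.05 to 2.17 CPM in joint migrated cells, and platelet sums 103 to 190 and 3.98 to 10.6 CPM. The part of these cell types in the levels of the 10 genes was not tested.

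**Figure D3:**
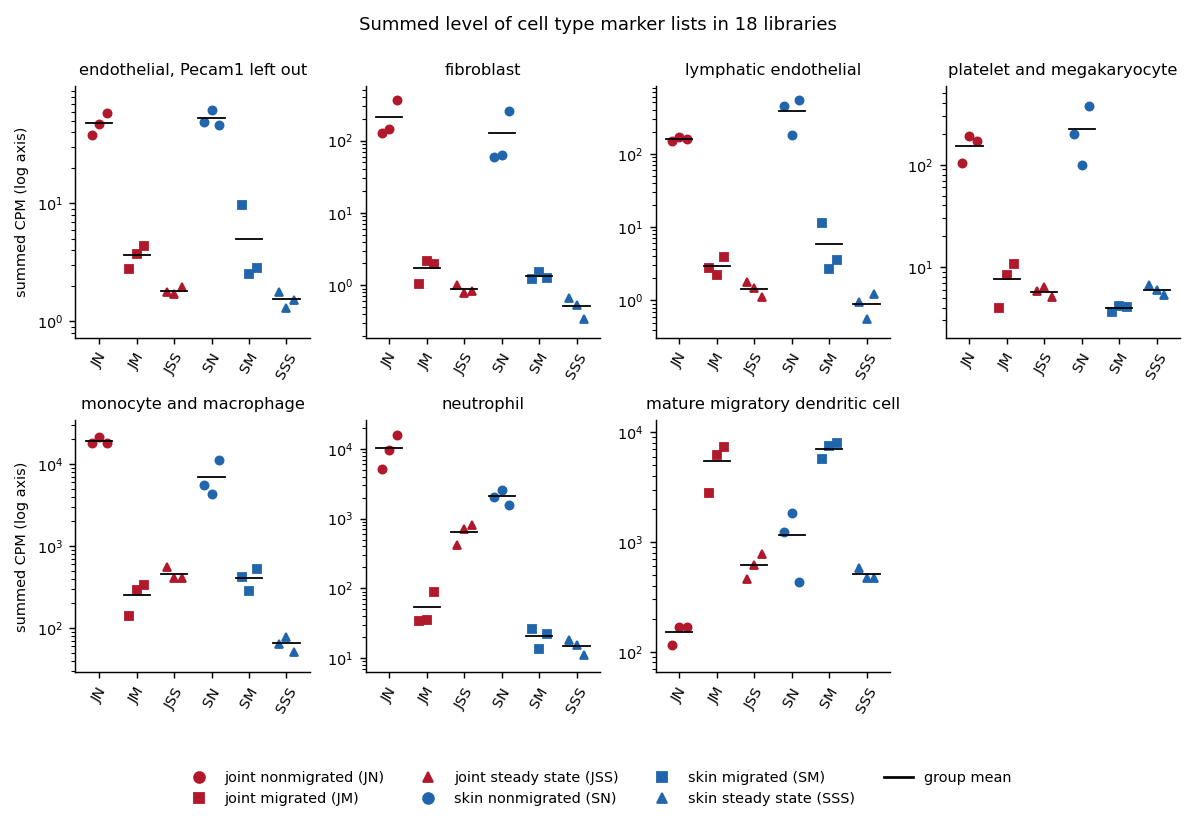
Summed CPM of marker lists in each library, on a log axis, with group means as lines. The monocyte and macrophage sum is 4320 to 21300 CPM in the nonmigrated groups and at most 557 CPM elsewhere. The mature dendritic cell sum is highest in the inflamed migrated groups.

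The second question was whether joint and skin differed. The study describes the inflamed skin profiles as a second data set, made after those of the joint. Site and data set therefore cannot be told apart in these comparisons. Among nonmigrated cells 2 of the 10 genes were called higher in the joint, against 5.45% of all genes tested, and 1 was called lower, against 8.86%. Angpt1 was higher by a log2 fold change of 4.19 (SE 0.450, edgeR adjusted p = 0.000151), although the skin libraries held 7 counts in all. Nrp1 was higher by 1.45 (SE 0.361, adjusted p = 0.0127), and lost the call without the first skin nonmigrated library or with only the groups compared in the fit. Kdr was lower by -2.26 (SE 0.223, adjusted p = 8.88e-05), with joint libraries at 4.39 to 6.07 CPM and skin libraries at 22.7 to 28.4 CPM.

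Vegfa and Flt1 were not called between the tissues. Vegfa averaged 365 ± 183 CPM in joint and 464 ± 128 CPM in skin nonmigrated cells, and Flt1 45.9 ± 10.3 and 48.2 ± 13.1 CPM (SD, n = 3). Their ranges overlapped, at log2 fold changes of -0.35 (SE 0.522) and -0.07 (SE 0.297). Tie1 was 1.75 to 2.89 CPM in the joint and 0.117 to 1.45 CPM in skin, without overlap, but its difference of 1.57 (SE 0.754, edgeR adjusted p = 0.141) was not called. Without the third skin nonmigrated library, Tek (3.03) and Tie1 (2.46) were called higher in the joint too. Macrophage sums were 17800 to 21300 CPM in joint and 4320 to 11100 CPM in skin nonmigrated cells, and mature dendritic cell sums 116 to 169 and 432 to 1840 CPM. Neutrophil (5 of 7), B cell (5 of 5) and mural genes (3 of 7) were called higher in the joint, against 5.45% of all genes tested. T cell (5 of 6), regulatory T cell (3 of 5) and mature dendritic cell genes (5 of 5 tested) were called lower, against 8.86%. Mural sums were 42.9 to 50.2 CPM in joint and 10.5 to 18 CPM in skin nonmigrated cells. The part of these lists was not tested.

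Among migrated cells 0 of the 10 genes were called between joint and skin by edgeR, and 0 by DESeq2. Of all genes tested by edgeR, 0.560% were called higher in the joint and 0.578% lower. At an unadjusted p under 0.05, which 16.5% of all genes tested reached, there were 2 of the 10, Cdh5 at a log2 fold change of 1.47 (SE 0.527, edgeR adjusted p = 0.186) and Flt1 at -0.80 (SE 0.341, adjusted p = 0.271). Cdh5 did not overlap, at 1.83 to 3.13 CPM in joint and 0.443 to 1.26 CPM in skin migrated cells. Kdr was 8.45 ± 2.48 CPM in joint and 10.2 ± 1.33 CPM in skin migrated cells (SD, n = 3), with overlap. B cell genes were called higher in joint migrated cells, 5 of 5, and their part was not tested.

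The difference between the sites in the change on migration was tested as an interaction. It was called for 2 of the 10 genes, 1 in each direction, where 3.96% of all genes tested were called higher (a change further upward in the joint) and 2.17% lower. For Kdr the value was 2.00 (SE 0.305, edgeR adjusted p = 0.00421), and for Angpt1 it was -3.67 (SE 0.587, adjusted p = 0.00464). Both lost the call at an adjusted p under 0.001 and kept it in each of the other 19 alternatives run. For Nrp1 the value was -1.21 (SE 0.503, edgeR adjusted p = 0.156), which was called only without the third skin nonmigrated library (-1.95). For Cdh5 it was 1.24 (SE 0.714, adjusted p = 0.294), so that the call in skin and its absence in the joint are not shown to differ. In the same test mature dendritic cell genes were called higher (4 of 5 tested, median 2.71), as were 2 of 6 T cell and 2 of 5 regulatory T cell genes, and 3 of 5 B cell genes were called lower (median -2.93), and their part was not tested.

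The last question was how migrated cells compared with the nodes labelled steady state. Tek and Tie1 were too low to be tested in the 12 node libraries. Of the other 8 genes, 5 were called higher in joint migrated than in joint steady-state cells and 0 lower, where 16.9% of 17107 genes tested were called higher and 7.31% lower. In skin 6 were called higher and 1 lower, against 21.5% and 15.0% of all genes tested. Mature dendritic cell genes were called higher in migrated cells at both sites (4 of 5 tested in the joint, 5 of 5 in skin) and B cell genes lower (5 of 5 at both). Regulatory T cell genes were called higher too (5 of 5 at both, medians 1.66 and 1.28). Macrophage genes were called higher in skin (8 of 8, median 2.98), and in the joint 2 of 8 were higher and 3 lower. Neutrophil genes were called lower in the joint (7 of 7). Of 7 endothelial genes tested, 3 were called higher and 1 lower in the joint, and 4 higher and 1 lower in skin. Lymphatic endothelial genes were called higher for 1 of 4 tested in the joint and 4 of 4 in skin. Of 6 stem and progenitor genes tested, 5 were called higher and 0 lower at both sites. Of 6 mast cell genes, 4 were higher and 1 lower in the joint, and 1 was higher in skin. The part of these lists was not tested.

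Vegfc, Kdr, Nrp1, Angpt1 and Flt1 were called higher at both sites. Vegfc was 0.178, 0.147 and 0.1996 CPM in joint steady-state libraries, or 8, 6 and 9 counts, against 1.31 to 1.91 CPM in joint migrated libraries. The log2 fold change was 3.23 (SE 0.308, edgeR adjusted p = 1.75e-06). In skin it was 0.381, 0.278 and 0.428 CPM at steady state and 1.16 to 1.37 CPM in migrated cells, at 1.83 (SE 0.298, adjusted p = 0.000125). The groups did not overlap at either site.

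Kdr was 1.29 ± 0.467 CPM in joint steady-state and 8.45 ± 2.48 CPM in joint migrated cells (SD, n = 3). The log2 fold change was 2.74 (SE 0.282, edgeR adjusted p = 3.36e-06). In skin Kdr was 1.04 ± 0.133 CPM in steady-state and 10.2 ± 1.33 CPM in migrated cells (SD, n = 3), at 3.31 (SE 0.293, adjusted p = 4.74e-07). Nrp1 was 15.7 ± 2.35 CPM in joint steady-state and 53.4 ± 9.06 CPM in joint migrated cells, at 1.80 (SE 0.148, edgeR adjusted p = 4.44e-07). In skin Nrp1 was 12.3 ± 1.52 and 45.2 ± 3.55 CPM in the same order, at 1.91 (SE 0.150, adjusted p = 1.51e-07). Both genes separated migrated from steady-state libraries at each site without overlap. Angpt1 was higher by 2.02 (SE 0.322, edgeR adjusted p = 0.000170) in the joint and by 1.16 (SE 0.341, adjusted p = 0.00902) in skin, and the skin call was lost without the first skin steady-state library.

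Flt1 was higher by 3.28 (SE 0.501, edgeR adjusted p = 7.42e-05) in skin, with 0.179 to 0.463 CPM at steady state and 2.28 to 3.30 CPM in migrated cells. In the joint it was higher by 1.35 (SE 0.449, edgeR adjusted p = 0.0234), with overlapping groups. There it lost the call without the second or the third library of either group and with counts thinned to the smallest library (1.11). Vegfa was called higher in skin, at 2.3 (SE 0.519, edgeR adjusted p = 0.00165), and not in the joint, at 0.62 (SE 0.473, adjusted p = 0.293), where the sign changed to -0.08 without the third joint migrated library.

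**Figure D4:**
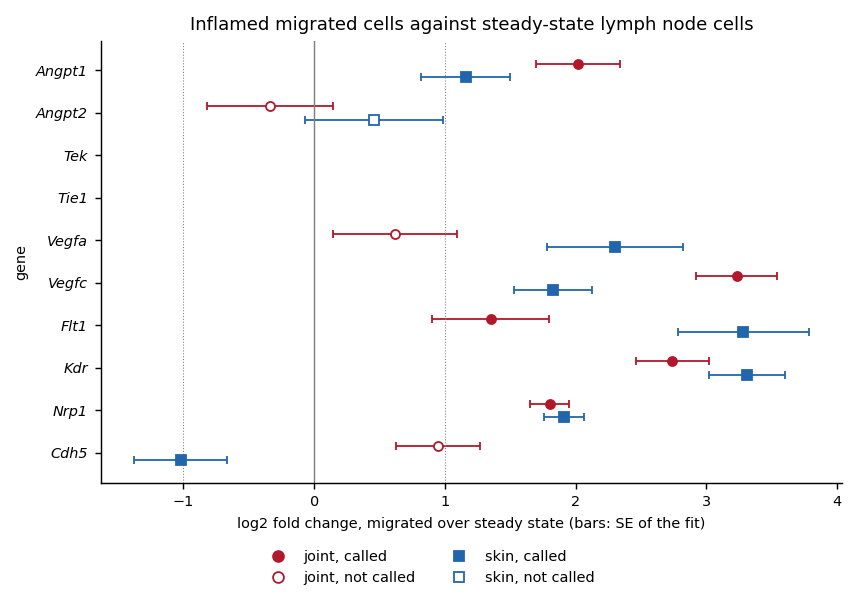
Log2 fold change of inflamed migrated over steady-state node cells in joint and skin, with bars for the standard error of the fit; Tek and Tie1 were not tested. Vegfc, Kdr, Nrp1, Angpt1 and Flt1 lie above 1 at both sites, and Cdh5 lies at 0.95 in the joint and -1.02 in skin.

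Cdh5 lay on opposite sides of 0. In the node draining the joint it was 1.27, 1.45 and 0.998 CPM at steady state and 1.83, 2.08 and 3.13 CPM in migrated cells, and its log2 fold change of 0.95 (SE 0.321, edgeR adjusted p = 0.0244) was just under the fold threshold. In the node draining the skin it was 2.17, 1.48 and 1.62 CPM at steady state and 1.26, 0.849 and 0.443 CPM in migrated cells, at -1.02 (SE 0.355, adjusted p = 0.0219) just past it. The groups were apart at both sites. The skin call was lost without the third skin migrated or the first skin steady-state library, with all 18 libraries in the fit and with counts thinned to the smallest library, and the joint difference was called without the first or second joint migrated or the second joint steady-state library.

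The difference between the sites in this change was tested after the values had been seen. Cdh5 was called, at 1.98 (SE 0.479, edgeR adjusted p = 0.0206), and the other 7 genes tested were not, where 2.33% of all genes tested were called higher and 3.78% lower. For Flt1 the value was -1.93 (SE 0.668, edgeR adjusted p = 0.0843), for Vegfa -1.67 (SE 0.694, adjusted p = 0.141) and for Vegfc 1.40 (SE 0.429, adjusted p = 0.0559). The Cdh5 value ranged from 1.70 to 2.42 over 20 alternatives and lost the call in 3 of them, at an adjusted p under 0.001, with all 18 libraries and with thinned counts. Macrophage (7 of 8, median -2.86) and neutrophil genes (6 of 7, median -3.63) were called lower in the same test and B cell genes higher (5 of 5, median 1.85), and their part was not tested.

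Between cells of the steady-state nodes 1 of the 8 genes tested was called higher in those of the node draining the joint and 0 lower. Of all genes tested, 3.23% were called higher and 0.655% lower. Vegfa was 6.94, 11.02 and 11.02 CPM in the node draining the joint and 3.34, 1.92 and 1.59 CPM in the other, without overlap, at a log2 fold change of 2.06 (SE 0.511, edgeR adjusted p = 0.0254). It lost the call without the second or the third library of either group. Vegfc did not overlap either and was not called, at -1.03 (SE 0.337, edgeR adjusted p = 0.0853). Macrophage sums were 404 to 557 and 51.4 to 78.7 CPM, neutrophil sums 418 to 820 and 11.1 to 17.9 CPM, and their part was not tested.

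Of the other ligands and receptors of these families, a list of 7, 5 could be tested between tissue and node. In the joint 1 was called lower and 0 higher in migrated cells, and in skin 2 lower and 0 higher, with medians of 0.04 and -1.83. Of all genes tested, 18.4% were called lower and 16.0% higher in the joint, and 19.7% and 15.7% in skin. Ptprb, the phosphatase that acts on TIE2 and VE-cadherin, fell in the joint from 2.42 ± 0.607 to 0.0556 ± 0.0519 CPM, a log2 fold change of -5.30 (SE 0.848, edgeR adjusted p = 0.000266). Pgf, the placental growth factor that binds FLT1, fell in skin from 114 ± 53.1 to 2.35 ± 1.05 CPM, at -5.60 (SE 0.719, adjusted p = 5.47e-05). Flt4, the receptor for VEGFC, was called lower in skin at -1.83 (SE 0.641, edgeR adjusted p = 0.0285), a call lost without the first (-1.87) or the third (-1.36) nonmigrated library or without the first (-1.66) or the second (-1.57) migrated library.

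Pgf was lower in joint than in skin nonmigrated cells (6.77 ± 2.15 against 114 ± 53.1 CPM), at a log2 fold change of -4.08 (SE 0.652, edgeR adjusted p = 0.00124), and its change on migration differed between the sites by 4.11 (SE 0.902, adjusted p = 0.0196), a call lost without the first skin nonmigrated library (3.68). Nrp2, the neuropilin that pairs with VEGFC receptors, stayed at 113 to 393 CPM in the 12 inflamed libraries and was called between none of the inflamed groups. In cells of the steady-state nodes it was 5.01 to 7.27 and 7.89 to 8.03 CPM. Of 4 genes tested against these nodes, Pgf, Flt4 and Nrp2 were called higher in migrated cells at both sites, where 16.9% and 21.5% of all genes tested were called higher. Nrp2 was at 5.60 (SE 0.402, edgeR adjusted p = 1.39e-07) in the joint and 5.21 (SE 0.394, adjusted p = 1.07e-07) in skin.

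Cells sense oxygen through hypoxia-inducible factors, which drive Vegfa in many cell types, and all 8 genes listed for this system were tested. In joint migrated against nonmigrated cells 2 were called lower and 1 higher (median -0.27), against 18.4% and 16.0% of all genes tested. In skin 3 were called lower and 1 higher (median -0.53), against 19.7% and 15.7%. Hif1a, the oxygen-regulated subunit, fell from 451 ± 38.2 to 183 ± 33.2 CPM in the joint, at a log2 fold change of -1.30 (SE 0.188, edgeR adjusted p = 0.000130), and from 686 ± 152 to 197 ± 34.4 CPM in skin, at -1.80 (SE 0.191, adjusted p = 1.34e-05). Vhl, whose product marks these factors for degradation, rose by 1.38 (SE 0.210, edgeR adjusted p = 0.000181) and 1.39 (SE 0.211, adjusted p = 0.000183).

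Egln3, a prolyl hydroxylase that is itself a textbook target of these factors, fell by a log2 fold change of -1.60 (SE 0.294, edgeR adjusted p = 0.000716) in the joint and -4.95 (SE 0.339, adjusted p = 6.09e-07) in skin. It was 59.3 ± 13.6 CPM in joint and 478 ± 135 CPM in skin nonmigrated cells, at -3.01 (SE 0.307, edgeR adjusted p = 0.000107). Egln3 was the only 1 of the 8 genes called between these tissues, where 8.86% of all genes tested were called lower and 5.45% higher. Its change on migration differed between the sites by 3.35 (SE 0.419, edgeR adjusted p = 0.00150), where Vegfa had 0.75 (SE 0.754, adjusted p = 0.563). Against the steady-state nodes 2 of 8 were called higher in the joint and 3 of 8 in skin, with 0 lower at either site. Of all genes tested there, 16.9% were called higher in the joint and 21.5% in skin, and 7.31% and 15.0% lower. The call of Hif1a in skin was lost without the first migrated library (0.92).

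**Figure D5:**
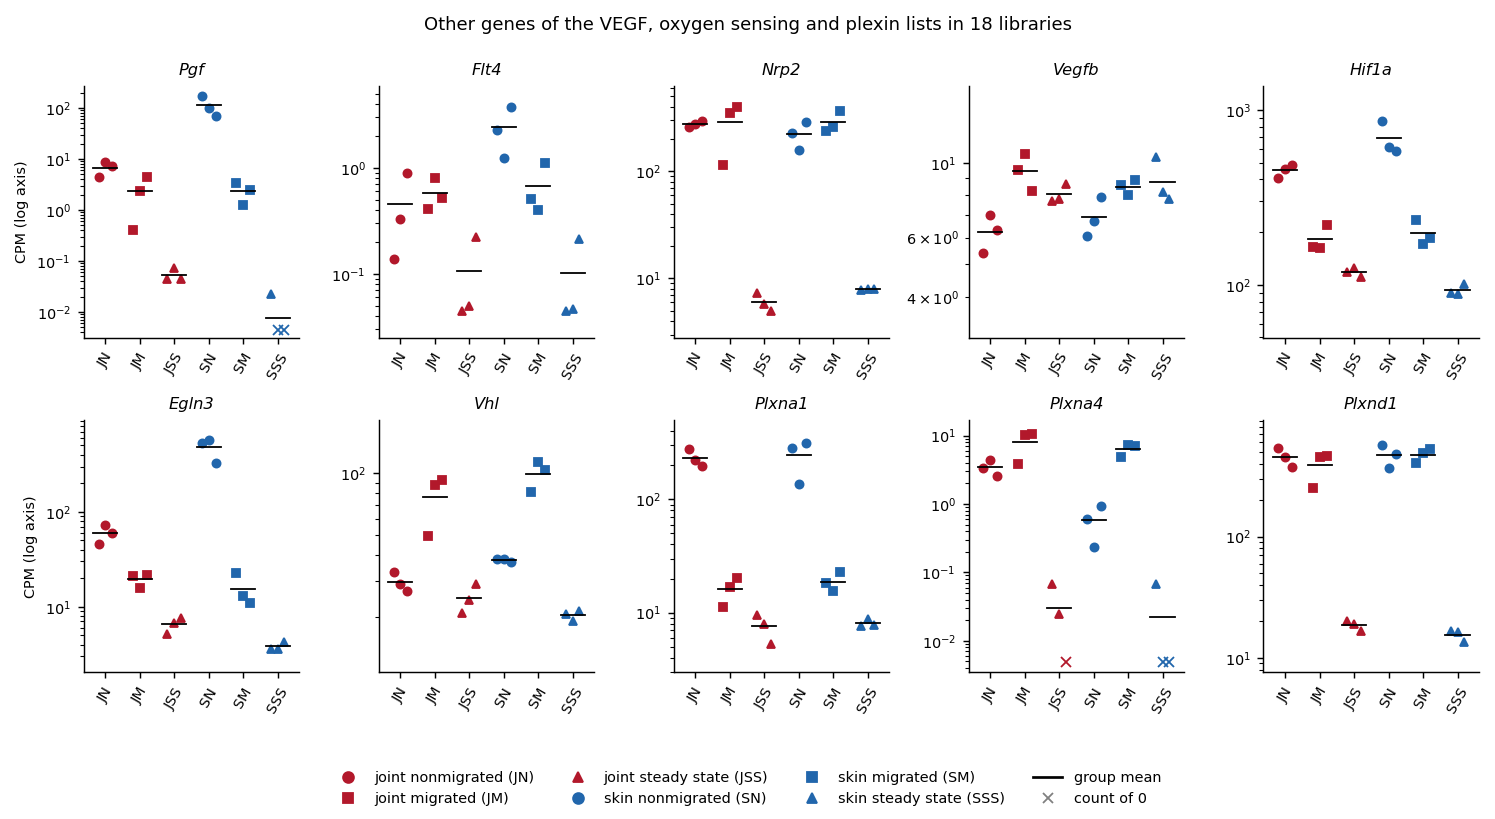
Level of other genes of the VEGF, oxygen sensing and plexin lists in the 18 libraries, in CPM on a log axis, with group means as lines and counts of 0 as crosses. Pgf and Egln3 are highest in skin nonmigrated cells, and Nrp2 and Plxnd1 are high in the inflamed groups and low in both steady-state groups.

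Of 11 semaphorins and plexins, the other ligands and the signalling partners of neuropilins, 9 could be tested between tissue and node. In the joint 4 were called lower and 3 higher in migrated cells, against 18.4% and 16.0% of all genes tested. In skin 4 were called lower and 1 higher, against 19.7% and 15.7%. Plxna1 fell from 234 ± 43.1 to 16.1 ± 4.55 CPM in the joint, a log2 fold change of -3.86 (SE 0.326, edgeR adjusted p = 2.85e-06), and from 245 ± 94.0 to 18.8 ± 3.53 CPM in skin, at -3.70 (SE 0.326, adjusted p = 3.54e-06). Plxna4 rose by 3.42 (SE 0.501, edgeR adjusted p = 0.000142) in skin and was called higher in the joint at 1.24 (SE 0.418, adjusted p = 0.0247). The joint call was lost without the first (1.23) or the third (1.07) nonmigrated library or without the second (1.06) or the third (1.04) migrated library. Sema3c, a secreted ligand of neuropilins, was at 0 in all 3 joint migrated libraries against 1.83 to 2.95 CPM in the joint nonmigrated libraries. Plxnd1, the receptor of SEMA3E, was called between none of the inflamed groups and was higher in migrated than in steady-state cells by 4.42 (SE 0.214, edgeR adjusted p = 5.68e-09) in the joint and 4.97 (SE 0.220, adjusted p = 1.47e-09) in skin. Of 7 genes tested there, 5 were called higher at each site, against 16.9% of all genes tested in the joint and 21.5% in skin. Plxna3 was called lower in skin, against 15.0% of all genes tested. Of these calls, Plxna1 in the joint was lost without the third migrated (0.92) or the third steady-state (0.93) library. Sema3d in skin, at 1.16 (SE 0.456, edgeR adjusted p = 0.0386), was lost without the first migrated (0.52) or the first (0.83) or the second (1.20) steady-state library, with the replicate number as a block (1.08), with only the groups compared (1.14) and with thinned counts (1.07).

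Genes with the most similar profile were sought for the 5 members with a mean of at least 1 CPM, among 13549 genes, as the smallest root-mean-square difference of centred log2 levels over the 18 libraries. For Vegfa, whose own SD over the libraries was 2.82, these were Olr1 (difference 0.56), Slc16a3 (0.58) and Dmxl2 (0.58), and for Flt1 (SD 2.41) they were Slamf8 (0.36), Nrg1 (0.40) and Cfb (0.42). Kdr (SD 1.45) was nearest to Bcl2l1 (0.44), Slamf7 (0.46) and Id2 (0.47), and Nrp1 (SD 1.34) to Lrp5 (0.27), Kif13a (0.38) and Vcl (0.38). Cdh5, which varied least of these 5 (SD 0.73), was nearest to Gm26947 (0.38), Glb1l (0.39) and Tep1 (0.40). The libraries share the 6 groups, and these differences are descriptions with no test.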

How the data were processed

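RNA from sorted CD45+ cells was sequenced as paired reads of 100 bases. Per the labels and the study's methods, the authors trimmed reads with Trim Galore, checked them with FastQC, aligned them to mm10 with TopHat2 and deposited raw HTSeq counts per gene; Cufflinks and DESeq2 are also named in the submitters' processing notes. Of 49585 gene rows, 49326 matched GENCODE M21, and 5 rows that name no gene (11.3% to 15.1% of reads) were left out. Each library of the inflamed groups pools several mice, and pooling is not described for the steady-state groups. Nothing says that libraries of a group came from separate experiments, so p-values measure the spread between libraries. The study describes the inflamed skin cells as a second data set, so differences between inflamed joint and skin cannot be told apart from data set.

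edgeR 4.0.16 (R 4.3.3, limma 3.58.1) was used with TMM scaling, filterByExpr at a minimum count of 10 and the quasi-likelihood F test, with Benjamini-Hochberg adjustment over all genes tested. The 12 inflamed libraries formed one fit (16777 genes) and the 12 node libraries another (17107 genes). DESeq2 1.42.0 was an alternative, and figures were drawn with matplotlib 3.10.9. Standard errors are the fold change divided by the root of F. Genes named are all 10 members, genes of 3 pathway lists that were called or had the highest mean level, and the nearest profiles. The members, pathway lists and marker lists (endothelial, lymphatic endothelial, platelet, fibroblast, mural, stem and progenitor, macrophage, neutrophil, plasmacytoid and mature dendritic, T, regulatory T, B and mast cells) were chosen with earlier results of these data known. Data were simulated for joint migrated against nonmigrated cells over 16777 genes, with 200 genes changed, in joint migrated cells only. There 65% of log2 changes of 1.5 and 91% of those of 3 were called, with 4 false calls. Far fewer genes were changed than were called in the real comparison, so these figures need not carry over to it. Chi-square per degree of freedom between libraries of a group was 16.2 to 130, so none was a duplicate.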

Additional observations from a re-analysis of the deposited data

Results flagged for a closer look

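Effects of the same contrast differed between joint and skin for 3 genes. The inflamed skin cells were a second data set, so site and data set cannot be told apart here. The change of Angpt1 on migration differed by a log2 value of -3.67 (joint minus skin), with skin nonmigrated libraries of 1, 3 and 3 counts. The change of Kdr on migration differed by 2.00. The difference of Cdh5 between migrated and steady-state node cells differed by 1.98, a test added after the values had been seen. Groups of 3 libraries were not tested for single outlying libraries.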

How the results depend on the processing

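Low counts limit Angpt1, Angpt2, Tek, Tie1 and Vegfc, and the shallower skin libraries limit them most. Scaling by size factors moved the median of all genes by at most 0.0224. Correlations of the deviations of same-numbered libraries were -0.326 to 0.224, in no comparison all over 0.1, so the numbers were not taken as pairs. With the replicate number as a block, the counts of members called did not change in any of the 9 comparisons, and genes called higher in the node change were 232 against 399.

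Leaving out 1 library at a time gave these ranges. For skin migrated against nonmigrated, members higher were 1 to 2, Vegfc -0.07 to 1.52 and Nrp1 -0.94 to 0.11. For joint against skin nonmigrated, genes higher were 601 to 1636 (914 with all), members higher 1 to 4, Angpt2 -0.57 to 0.43, Vegfc -0.66 to 0.93, Flt1 -0.28 to 0.09 and Cdh5 -0.17 to 0.95. For joint against skin migrated, genes higher were 21 to 42 (94 with all), lower 22 to 129 (97 with all) and Vegfa -0.28 to 0.86. For the migration change, genes higher were 371 to 1504 (665 with all), lower 204 to 1106 (364 with all), members lower 1 to 2, Angpt2 -0.85 to 0.16 and Vegfc -0.55 to 1.03. Against the joint steady state, Angpt2 was -0.65 to 0.06 and Vegfa -0.08 to 0.91, and against the skin steady state members lower were 0 to 1. Between the steady states, members higher were 0 to 1, genes lower 49 to 97 (112 with all) and Angpt2 -0.05 to 0.75. For the node change, genes higher were 260 to 499, members higher 1 to 2, members lower 0 to 1 and Nrp1 -0.26 to 0.04.

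At an adjusted p under 0.001, joint migrated against nonmigrated had 1476 genes higher and 3 members lower, and skin had 1424 genes higher, 2084 lower, 0 members higher and 3 lower. Joint against skin nonmigrated had 192 genes higher, 319 lower and 1 member higher, migrated cells 0 and 0 genes, and the migration change 11 genes higher, 9 lower and 0 members. The joint steady state comparison had 598 genes lower, the skin one 1455 with 0 members lower, the steady states 239 genes higher, 7 lower and 0 members higher, and the node change 33 higher, 119 lower and 0 members higher. With only the groups compared, joint against skin nonmigrated had 1 member higher, migrated cells 161 genes higher and the steady states 180 genes lower. DESeq2's Wald test gave 247 genes higher and 240 lower between migrated cells, 1111 and 645 for the migration change and 1 member lower in the node change. Without a filter on low counts migrated cells gave 164 and 163, and the node change 2 members lower. With all 18 libraries in the fit migrated cells gave 233 and 174, the migration change 1074 and 590, the skin steady state comparison 0 members lower, the steady states 63 genes lower, and the node change 187 genes and 0 members higher. With at least 10 counts in every library of a group the node change had 2 members higher. With thinned counts the skin steady state comparison had 0 members lower, and the node change 0 members higher and 1 lower. The causes were not tested.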
